A study of Mus musculus with 2 samples.

Results

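The interferon response genes are 52 mouse genes that sense viral RNA, carry the interferon signal or are switched on by it. They were chosen by symbol from a list of such genes, with no use of a measured value in the rule, and all 52 had a row among the 19829 genes of the table. Messenger RNA of whole kidneys was sequenced in 2 libraries, 1 per group, after acute kidney injury (AKI). The WT+AKI library came from wild-type control littermates. The TG+AKI library came from *Inmt* transgenic (TG) mice, in whose proximal tubules *Inmt* is overexpressed. This gene encodes an enzyme, indolethylamine N-methyltransferase, which methylates indole amines. The study's methods describe male C57BL/6 mice that all received voclosporin, a calcineurin inhibitor, at 30 mg/kg daily into the peritoneum for 2 weeks from 8 weeks of age. Ischemia of both kidneys for 30 min and reperfusion (I/R) followed at 14 weeks of age, and RNA was taken from the left kidney. The study's results text instead describes I/R after a longer course of voclosporin. The figure legend places the harvest 24 h after I/R and the methods place it 48 h after induction of injury. The series design also names voclosporin, whereas both samples carry a treatment field that reads as none. The title of the TG+AKI sample also calls the animals conditional knockout, and neither the promoter of the transgene nor whether a library pooled several mice is given in the sources used here. No untreated and no uninjured library was analysed here.

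Interferons are secreted proteins, and cells release those of type I when they sense nucleic acids out of place, above all viral RNA or DNA. Type I interferons signal through IFNAR1 and IFNAR2 to a complex that includes STAT2 and IRF9 and binds the interferon-stimulated response element (ISRE), whereas interferon gamma signals through IFNGR1 and IFNGR2 to factors that bind the gamma-activated site (GAS). The induced genes degrade RNA, block its translation, tag proteins with ISG15 or attack membranes of pathogens, and injured kidney tubules and the leukocytes around them are both known to express them.

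Promoters of the interferon response genes carried these elements more often than promoters at large. RefSeq promoter windows (assembly GRCm38.p6, from 250 bases before to 50 bases after each start) were found for 43 of the 52 genes. The ISRE core GAAANNGAAA, searched on both strands, was present in 20 of the 43 (46.5%) and in 3.99% of 27025 mouse genes with such a window. The GAS core TTCNNNGAA, which reads the same on both strands, was present in 15 of the 43 (34.9%) and in 9.55% of the 27025 genes. Both cores were present in 8 of the 43 genes and neither in 16, and in *Bst2* and *Ifitm3* the 2 cores shared bases. A match is a match of letters in these windows and does not show that a factor was bound.

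The following stretches lie upstream of the start that set each promoter window. They are read 5′ to 3′ on the strand of the gene, with the ISRE cores in capitals (the GAS core in *Irf1*). In *Oas1a* and *Gbp3* the stretch runs into the listed span of the gene, whose outer end lies upstream of that start. The stretches show the element in effector, GTPase and other induced genes and in 1 transcription factor, from the strongly lower *Isg15* and *Ifit1* to *Rsad2*, which was not lower in TG+AKI. *Isg15*, *Ifit1*, *Oas1a*, *Gbp3* and *Bst2* held overlapping or neighbouring copies, and the GAS core of *Bst2*, which overlaps its first ISRE core, is left in lower case.
Isg15, chr4:156200865-156200906, minus strand: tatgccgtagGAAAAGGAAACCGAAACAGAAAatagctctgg
Ifit1, chr19:34640775-34640823, plus strand: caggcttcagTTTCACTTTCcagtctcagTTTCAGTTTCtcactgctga
Oas1a, chr5:120907526-120907555, minus strand: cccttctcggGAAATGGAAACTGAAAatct
Gbp3, chr3:142559989-142560024, plus strand: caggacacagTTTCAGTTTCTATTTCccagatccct
Gbp2, chr3:142620594-142620623, plus strand: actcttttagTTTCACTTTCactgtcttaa
Bst2, chr8:71537577-71537612, minus strand: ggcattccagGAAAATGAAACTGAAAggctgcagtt
Irf1, chr11:53769914-53769942, plus strand: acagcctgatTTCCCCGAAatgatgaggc
Rsad2, chr12:26456553-26456582, minus strand: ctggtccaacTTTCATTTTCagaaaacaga

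The libraries held 38542764 (WT+AKI) and 36427421 (TG+AKI) reads of listed genes, and 1 read stood for a value of 0.0236 and 0.0302. *Inmt* was at 10.45 in WT+AKI (443 reads) and at 402.8 in TG+AKI (13339 reads), in the direction of the labels. The kidney injury genes *Havcr1* (1168.8 and 2.78) and *Lcn2* (249.8 and 1.87) were far lower in TG+AKI, as were all 6 genes of a tubular injury list (summed values 12940.7 and 802.4). All 10 genes of a proximal tubule list were higher in TG+AKI, with sums of 7253.5 and 32111.4, and their part in the interferon results was not tested. No RNA difference given here was checked in replicate libraries, since each group held 1 library, and no p-value for the genotype can be given. The paper also stained kidneys of several mice per group for INMT, the product of *Inmt*, and NGAL, the product of *Lcn2*. After I/R under voclosporin it reported preserved INMT and decreased NGAL in transgenic compared with wild-type mice. Values are the deposited normalized read counts, and each ratio carries a 95% interval from the reads that covers counting error only. A gene was tested when its mean value was at least 1 and was called lower or higher past 2-fold.

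The interferon response genes were lower in TG+AKI than in WT+AKI as a group. Of the 51 tested, 31 (60.8%) were at least 2-fold lower and 0 were 2-fold higher, beside 10.1% and 6.7% of all 14543 tested genes. The ratio was below 1 for 47 of the 51, beside 51.1% of all tested genes. The median ratio of TG+AKI over WT+AKI was -1.19 on the log2 scale, a level 2.28-fold lower, and the median of all tested genes was -0.01. Tested on reads, a comparison of the 2 libraries rather than of the genotypes, an exact binomial test gave an adjusted p under 0.05 for 49 of the 51 genes and for 73.6% of all tested genes. In whole kidney RNA, fewer cells of a type and less RNA per cell cannot be told apart. *Oas3* was the 1 member with a mean value under 1.

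**Figure D1:**
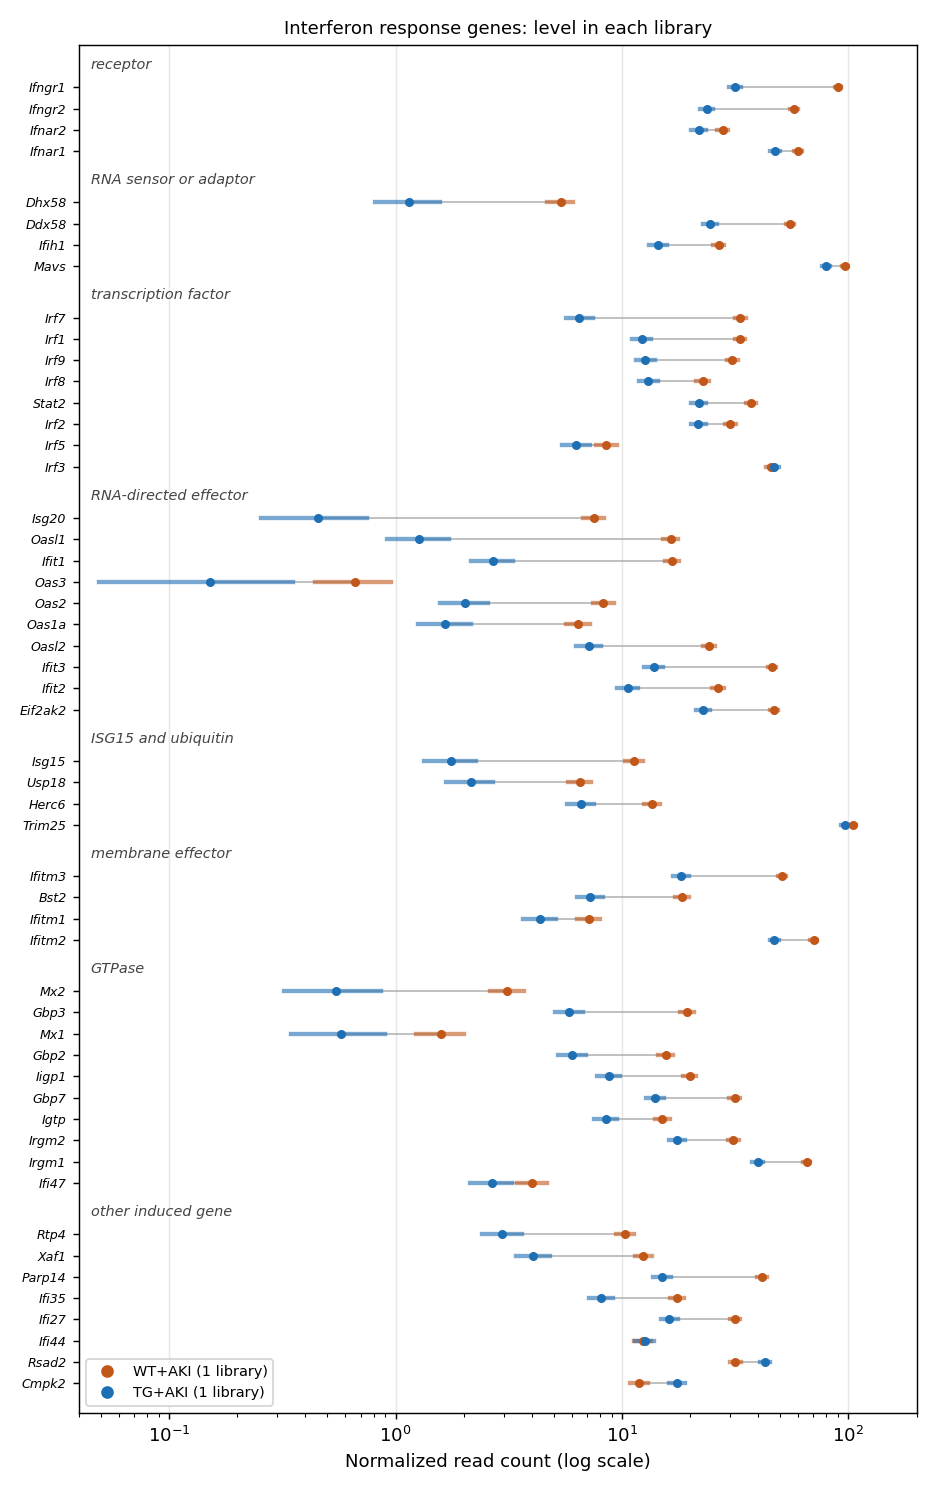
Normalized read count of each of the 52 interferon response genes (log axis) in WT+AKI (orange) and TG+AKI (blue), 1 library each, grouped by role and ordered by ratio within a role; thick bars are 95% counting intervals. The blue point lies left of the orange one for 48 genes and right of it for *Irf3*, *Ifi44*, *Rsad2* and *Cmpk2*, and the widest gap is that of *Isg20* (7.50 and 0.453).

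The receptors split by the interferon they bind. *Ifngr1*, the ligand-binding chain of the interferon gamma receptor, was at 90.3 in WT+AKI (3828 reads) and at 31.6 in TG+AKI (1045 reads), 2.86-fold lower (interval 2.67 to 3.07). *Ifngr2*, its signalling partner, was at 57.5 and 23.6 (2438 and 783 reads), 2.43-fold lower (interval 2.24 to 2.64). Both chains of the interferon gamma receptor were thus called lower. *Ifnar1* and *Ifnar2*, the chains of the type I receptor, had values of 59.9 and 47.6 and of 27.9 and 21.8, with ratios of 0.794 and 0.782. Neither was past 2-fold, and the intervals of these ratios (0.746 to 0.846 and 0.712 to 0.859) lay above those of the gamma chains, the higher of which ended at 0.446.

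Of the RNA sensors, the 3 helicases of the RIG-I family were all lower. *Dhx58*, which encodes LGP2, a helicase that tunes the other sensors, was at 5.35 (227 reads) and 1.15 (38 reads), 4.67-fold lower (interval 3.30 to 6.76). *Ddx58*, which encodes RIG-I, the sensor of short RNA with a triphosphate end, was at 55.2 and 24.5 (2342 and 812 reads), 2.25-fold lower (interval 2.08 to 2.44). *Ifih1*, which encodes MDA5, the sensor of long double-stranded RNA, was at 26.7 and 14.4 (1134 and 477 reads), with a ratio of 0.538 (interval 0.483 to 0.600). That ratio did not reach 2-fold. *Mavs*, the mitochondrial adaptor to which RIG-I and MDA5 signal, was at 96.9 and 79.7 (ratio 0.822, interval 0.783 to 0.864), so the adaptor differed less than the sensors.

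Among the 8 transcription factors, 3 were at least 2-fold lower and the median log2 ratio was -0.78. *Irf7*, which amplifies type I interferon production and is itself induced by interferon, was at 33.4 (1415 reads) and 6.49 (215 reads), 5.14-fold lower (interval 4.45 to 5.96). *Irf1*, a factor induced through GAS elements, was at 33.2 and 12.2 (1408 and 404 reads), 2.72-fold lower (interval 2.43 to 3.05). *Irf9*, the DNA-binding partner of STAT2, was at 30.7 and 12.7 (1301 and 420 reads), 2.42-fold lower (interval 2.17 to 2.71). The other 5 factors did not reach 2-fold. *Stat2*, the type I signal transducer, and *Irf8*, a factor of myeloid cells, had ratios of 0.587 and 0.576, and *Irf2*, a counterpart of IRF1, and *Irf5*, which acts below Toll-like receptors, had ratios of 0.723 and 0.736. *Irf3* encodes the factor that RNA sensing activates by phosphorylation rather than by induction, and its values of 45.4 and 46.8 gave a ratio of 1.03 (interval 0.964 to 1.10). *Irf3* and *Irf7*, which act at the same step, therefore differed in their ratios by more than counting error. Exons of *Irf5* overlap *Tnpo3* on the opposite strand over 14.1% of their length, and the strand setting of the counting was not stated.

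The effectors that act on RNA held the largest differences, and all 10 were more than 2-fold lower. Of the 9 tested, 9 were called lower, with a median log2 ratio of -1.95. *Isg20*, a 3′ to 5′ exonuclease that degrades single-stranded RNA, was at 7.50 (318 reads) and 0.453 (15 reads), 16.6-fold lower (interval 9.89 to 29.9). *Oasl1*, an OAS-like protein that restrains translation of *Irf7* mRNA, was at 16.4 (696 reads) and 1.27 (42 reads), 12.9-fold lower (interval 9.48 to 18.1). These were the lowest ratios of the 52 genes as deposited. With a pseudocount of 1 added to both values the log2 ratio was -2.55 for *Isg20* and -2.94 for *Oasl1*, and with a pseudocount of 10 it was -0.74 and -1.23, behind *Irf7* at -1.40.

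The OAS enzymes make 2′-5′ oligoadenylate, which activates the ribonuclease RNase L, and their genes lie on chromosome 5. *Oas2* was at 8.28 and 2.02 (351 and 67 reads), 4.09-fold lower (interval 3.14 to 5.40). *Oas1a* was at 6.42 and 1.66 (272 and 55 reads), 3.86-fold lower (interval 2.88 to 5.26), and it shared 40.9% of its 100-base words with *Oas1g*, so reads of the 2 may have been exchanged. *Oas3* had only 28 and 5 reads, which gave a 4.37-fold lower level with a wide interval of 1.67 to 14.5. *Oasl2*, an OAS-like protein with ubiquitin-like domains, was at 24.2 and 7.13 (1027 and 236 reads), 3.40-fold lower (interval 2.95 to 3.93). The intervals of *Oasl1* and *Oasl2* did not overlap, so the 2 OAS-like genes differed in their ratios by more than counting error.

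The IFIT genes, neighbours on chromosome 19, encode proteins that bind foreign RNA or its translation machinery. *Ifit1*, which binds RNA with an incomplete cap, was at 16.6 (705 reads) and 2.69 (89 reads), 6.19-fold lower (interval 4.96 to 7.80). *Ifit3*, which stabilises IFIT1, was at 46.0 and 13.8 (1952 and 457 reads), 3.34-fold lower (interval 3.01 to 3.70). *Ifit2* was at 26.5 and 10.6 (1125 and 351 reads), 2.50-fold lower (interval 2.22 to 2.83). The 3 intervals did not overlap each other, and *Ifit3* shared 31.6% of its 100-base words with *Ifit3b*. *Eif2ak2*, which encodes PKR, the kinase that stops translation on sensing double-stranded RNA, was at 47.0 and 22.7 (1991 and 753 reads), 2.06-fold lower (interval 1.90 to 2.25). It was the RNA-directed effector with the ratio nearest to 1.

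ISG15 is a ubiquitin-like protein that interferon-treated cells attach to other proteins or secrete. *Isg15* was at 11.3 (479 reads) and 1.75 (58 reads), 6.45-fold lower (interval 4.91 to 8.62). *Usp18*, the protease that removes ISG15 and damps the type I receptor, was at 6.51 and 2.14 (276 and 71 reads), 3.04-fold lower (interval 2.33 to 3.999). *Herc6*, the main ISG15 ligase of the mouse, was at 13.6 and 6.58 (578 and 218 reads), 2.07-fold lower (interval 1.77 to 2.43), with 20.9% of its words shared with the overlapping model *Gm45193*. The modifier, its protease and its ligase were thus all called lower. *Trim25*, the ubiquitin ligase of RIG-I, was at 104.7 and 96.2 (4440 and 3185 reads), a ratio of 0.918 (interval 0.877 to 0.961).

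The membrane effectors stop viruses at entry or at release. *Ifitm3*, which blocks fusion of virus and endosome, was at 51.0 and 18.3 (2160 and 605 reads), 2.79-fold lower (interval 2.55 to 3.06). *Bst2*, which encodes tetherin, the protein that holds budding virions at the cell surface, was at 18.4 and 7.25 (782 and 240 reads), 2.54-fold lower (interval 2.20 to 2.95). Both intervals lay wholly beyond 2-fold. *Ifitm1* and *Ifitm2*, paralogues of *Ifitm3* on chromosome 7, had ratios of 0.610 (interval 0.497 to 0.747) and 0.670 (interval 0.629 to 0.712). The ratio of *Ifitm3* was thus lower than those of both paralogues beyond counting error, although 34.9% of the words of *Ifitm2* occur in other gene models. Per kb of the longest GENCODE M21 transcript, *Ifitm2* and *Ifitm3* had the highest levels of the 52 genes in both libraries, with levels of 107.5 and 75.1 in WT+AKI and of 72.0 and 26.9 in TG+AKI. Next came *Ifngr1* (42.8) in WT+AKI and *Mavs* (26.1) in TG+AKI, where *Ifitm3* and *Mavs* were almost level.

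The GTPases of the MX, GBP and IRG families trap viral cores or break the vacuoles of intracellular pathogens. Of the 10, 6 were at least 2-fold lower and the median log2 ratio was -1.18. *Mx2* and *Mx1*, neighbours on chromosome 16, were low in both libraries. *Mx2* was at 3.11 and 0.543 (132 and 18 reads), 5.73-fold lower (interval 3.49 to 9.96). *Mx1* was at 1.58 and 0.574 (67 and 19 reads), 2.75-fold lower (interval 1.63 to 4.86). Their intervals overlapped.

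The 3 guanylate-binding protein genes among the interferon response genes, on chromosome 3, were all called lower. *Gbp3* was at 19.4 and 5.83 (821 and 193 reads), 3.32-fold lower (interval 2.84 to 3.91). *Gbp2* was at 15.6 and 6.01 (661 and 199 reads), 2.60-fold lower (interval 2.21 to 3.06). *Gbp7* was at 31.4 and 13.98 (1332 and 463 reads), 2.25-fold lower (interval 2.02 to 2.50). The order among these 3 was therefore *Gbp3*, *Gbp2* and *Gbp7*, in which each interval overlapped the next and those of *Gbp3* and *Gbp7* did not meet. Other genes of the family, named here as relatives, were not called. *Gbp4*, *Gbp5*, *Gbp6* and *Gbp9* had ratios of 0.903, 0.665, 0.648 and 0.692, and *Gbp8* (42 and 16 reads) was under the filter.

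Of the 5 immunity-related GTPases (IRG) among the interferon response genes, 1 was called lower. *Iigp1*, an effector GTPase that coats pathogen vacuoles, was at 19.9 and 8.73 (845 and 289 reads), 2.28-fold lower (interval 1.996 to 2.62). The regulatory GTPases *Igtp*, *Irgm2* and *Irgm1* had ratios of 0.562, 0.562 and 0.607, and *Ifi47*, another IRG gene, had a ratio of 0.663 (interval 0.506 to 0.862). These 4 genes, all on chromosome 11, did not reach 2-fold. Neither did *Tgtp1* and *Tgtp2*, other IRG genes named here as relatives, with ratios of 0.762 and 0.753. *Igtp* and *Irgm2* had almost the same ratio, with intervals of 0.487 to 0.648 and 0.509 to 0.621. Their exons overlap on the same strand, over 8.01% of the exon length of *Igtp* and 4.39% of that of *Irgm2*. *Igtp* and *Irgm2* share 5.67% and 2.48% of their words with each other, so some of their reads may have been exchanged. Their promoters also held a GAS and an ISRE core side by side in stretches that were identical at 40 of 41 bases, shown here with both cores in capitals because 2 neighbouring genes carry the same arrangement.
Igtp, chr11:58199501-58199541, plus strand: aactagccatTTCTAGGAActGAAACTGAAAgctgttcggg
Irgm2, chr11:58214892-58214932, plus strand: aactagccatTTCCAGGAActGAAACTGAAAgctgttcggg

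The last 8 genes are induced by interferon and have other or less settled functions. Of these, 4 were at least 2-fold lower. *Rtp4*, a chaperone of G-protein-coupled receptors, was at 10.3 and 2.96 (437 and 98 reads), 3.48-fold lower (interval 2.79 to 4.38). *Xaf1*, an antagonist of the apoptosis inhibitor XIAP, was at 12.4 and 4.05 (526 and 134 reads), 3.07-fold lower (interval 2.53 to 3.74). *Parp14*, an ADP-ribosyltransferase, was at 41.5 and 15.0 (1760 and 497 reads), 2.77-fold lower (interval 2.50 to 3.06). All 3 were lower by more than 2-fold over their whole interval. *Ifi35* was at 17.5 and 8.06 (741 and 267 reads), 2.17-fold lower (interval 1.88 to 2.50), and 16.8% of its exon length overlaps *Gm11626* on the opposite strand. *Ifi27*, a mitochondrial protein, had a ratio of 0.512 (interval 0.463 to 0.567), the ratio nearest to 2-fold among the genes that were not called. Just inside the limit stood *Eif2ak2* and *Herc6*, both with log2 ratios of -1.05, and just outside it *Ifi27* (-0.96) and *Ifih1* (-0.89).

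Against the direction of the others, 4 genes had ratios above 1, named here because of their values. *Rsad2*, which encodes viperin, an enzyme that makes a chain-terminating nucleotide, was at 31.7 and 43.0 (1342 and 1423 reads), a ratio of 1.36 (interval 1.26 to 1.46). *Cmpk2*, a mitochondrial nucleotide kinase that supplies viperin's substrate, was at 11.9 and 17.5 (504 and 579 reads), a ratio of 1.47 (interval 1.30 to 1.66). *Rsad2* and *Cmpk2* are neighbours on chromosome 12, on opposite strands and 12.7 kb apart, and neither passed 2-fold. *Ifi44*, an interferon-induced protein of the cytoplasm, was at 12.4 and 12.7 (525 and 419 reads), a ratio of 1.02 (interval 0.897 to 1.16). *Irf3*, given above, was the fourth, and the intervals of *Ifi44* and *Irf3* were the 2 that included 1. When the 2 columns were scaled to equal totals, the log2 ratios of *Irf3* and *Ifi44* became -0.23 and -0.24, whereas those of *Rsad2* and *Cmpk2* stayed above 0.

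**Figure D2:**
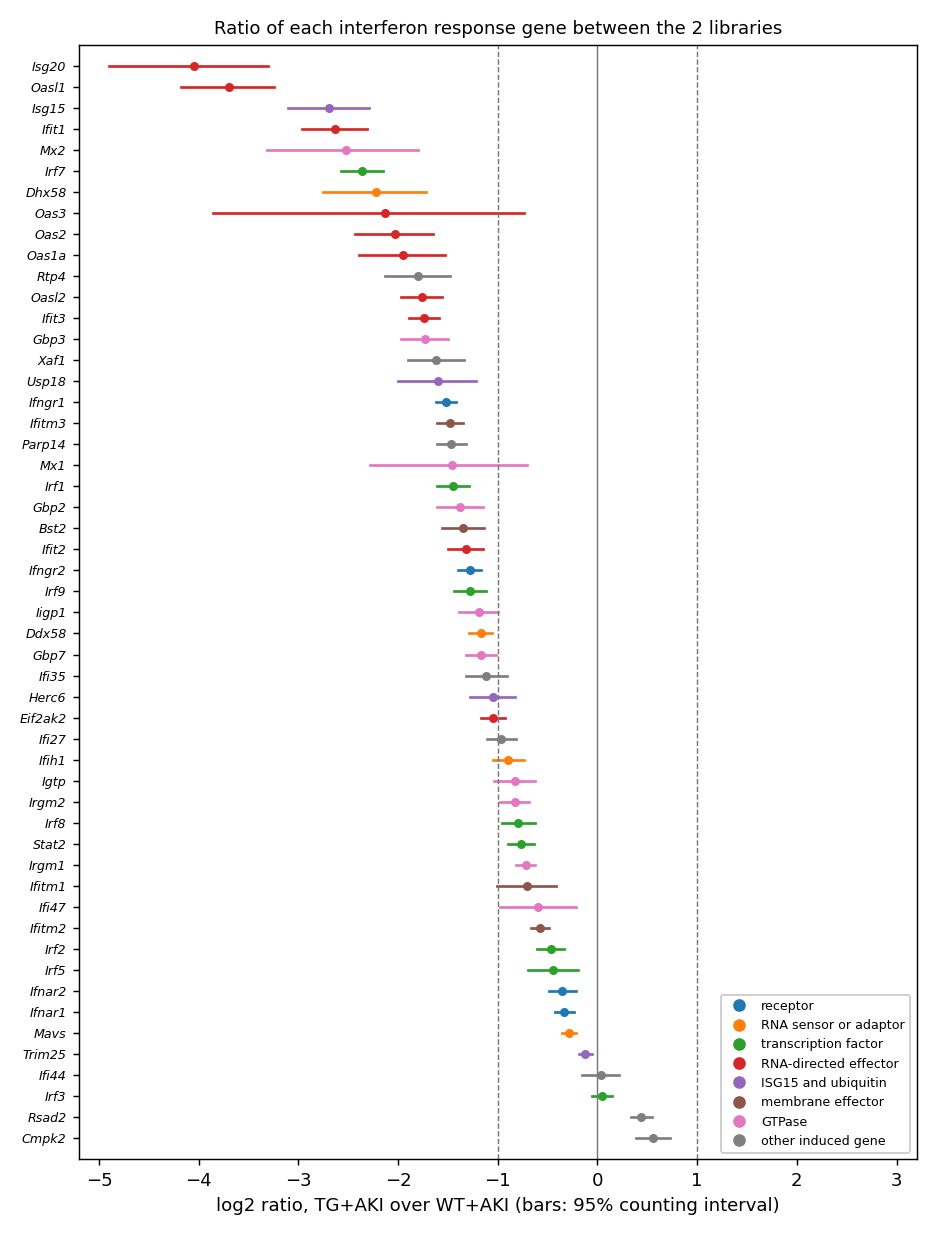
log2 ratio of TG+AKI over WT+AKI for each interferon response gene, in order, with bars for 95% counting intervals and colour for role; dashed lines mark 2-fold. The RNA-directed effectors (red) lie from -4.05 to -1.05, the transcription factors (green) from -2.36 to 0.04, and *Rsad2* and *Cmpk2* alone have intervals wholly above 0.

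Genes with and without the promoter elements fell on both sides of the 2-fold limit. Of the genes with a promoter window, 24 were at least 2-fold lower, among them *Oas3*, which was under the filter. An ISRE core was present in 12 of these (50%), *Oas3* included, beside 8 of the other 19 (42.1%). For the GAS core the counts were 9 of 24 (37.5%) and 6 of 19 (31.6%). The window of *Rsad2* held an ISRE core, shown above, although *Rsad2* was higher in TG+AKI, and those of *Cmpk2* and *Irf7* held neither core. In the windows of *Ifngr1* and *Ifngr2* neither core was found.

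Other genes of the interferon pathway were read from a list of 108, of which 91 had a row and 81 were tested. Of the 81, 28 (34.6%) were at least 2-fold lower and 1 was higher, and the median log2 ratio was -0.78. Of the 15 interferon ligands on the list, 14 had no row and were not analysed here. *Ifnz*, a type I interferon, had 6 reads in WT+AKI and a single one in TG+AKI, too few for a comparison at this depth.

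Below the receptors, the receptor-associated kinases *Jak1*, *Jak2* and *Tyk2* had ratios of 0.874, 0.727 and 0.846, and none reached 2-fold. *Ifnlr1*, the specific chain of the interferon lambda receptor, was at 8.73 and 2.75 (370 and 91 reads), 3.18-fold lower (interval 2.52 to 4.04), while *Il10rb*, its shared chain, had a ratio of 0.887. Of the receptor chains, *Ifngr1*, *Ifngr2* and *Ifnlr1* were thus called lower, whereas *Ifnar1*, *Ifnar2* and *Il10rb* were not. The phosphatases *Ptpn2* and *Ptpn6* had ratios of 0.674 and 0.947, and *Pias1*, a SUMO ligase that inhibits STAT signalling, had a ratio of 1.13. *Socs3*, a feedback inhibitor induced by STAT3, was at 43.2 (1831 reads) and 2.51 (83 reads), 17.2-fold lower (interval 13.8 to 21.7). *Socs1*, the feedback inhibitor induced by interferon, had 37 and 14 reads and was under the filter.

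Of the 10 tested other pathway genes with the largest absolute log2 ratios, all were lower, led by *Socs3*. *Cxcl10*, a chemokine that attracts T cells, was at 25.0 (1059 reads) and 2.05 (68 reads), 12.2-fold lower (interval 9.52 to 15.8). *Zbp1*, a sensor of Z-form nucleic acid, was at 5.05 and 0.815 (214 and 27 reads), 6.19-fold lower (interval 4.14 to 9.61). *Tmem173*, which encodes STING, the adaptor of cytosolic DNA sensing, was at 14.7 and 2.66 (621 and 88 reads), 5.51-fold lower (interval 4.40 to 6.97). The adaptor of DNA sensing was thus lower by more than *Mavs*, the adaptor of RNA sensing, beyond counting error. *Lgals3bp*, a secreted galectin-binding protein, was at 223.4 and 48.6 (9472 and 1611 reads), 4.59-fold lower (interval 4.36 to 4.85). The others were the HIN-200 family genes *Ifi205* (7.98-fold lower), *Ifi211* (5.76-fold) and *Ifi204* (4.004-fold) and the OAS genes *Oas1g* (4.88-fold) and *Oas1b* (4.35-fold). The 1 gene past 2-fold in the other direction was *Ifit1bl1*, a relative of *Ifit1* named here because of its value, which had 26 and 53 reads and a ratio of 2.61 (interval 1.60 to 4.35).

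**Figure D3:**
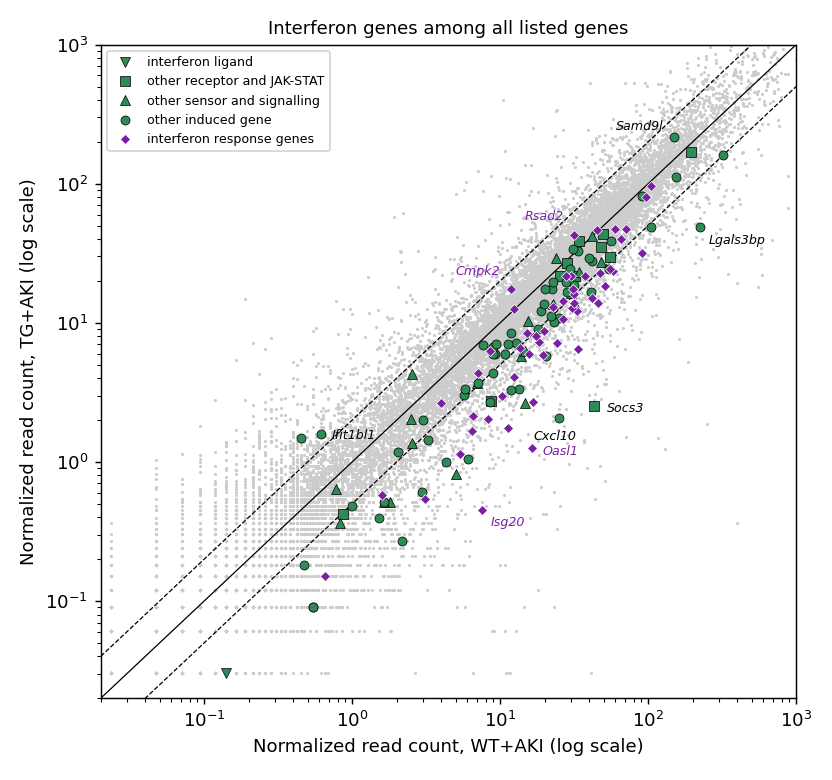
Normalized read count in TG+AKI against WT+AKI, both on log axes, for all listed genes (grey), the interferon response genes (purple diamonds) and the other pathway genes (green, shape by role); the solid line marks equal values and the dashed lines 2-fold, and genes beyond the axis limits are not drawn. Most coloured points lie below the solid line, *Socs3* and *Cxcl10* lie far below it, and *Rsad2*, *Cmpk2* and *Ifit1bl1* lie above it.

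Of the 81 other pathway genes tested, 74 had ratios below 1, beside 51.1% of all tested genes. The ISRE core was present in 23 of the 69 other pathway genes with a promoter window (33.3%) and the GAS core in 11 (15.9%). For both cores these shares lay between those of the interferon response genes and those of all genes.

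**Figure D4:**
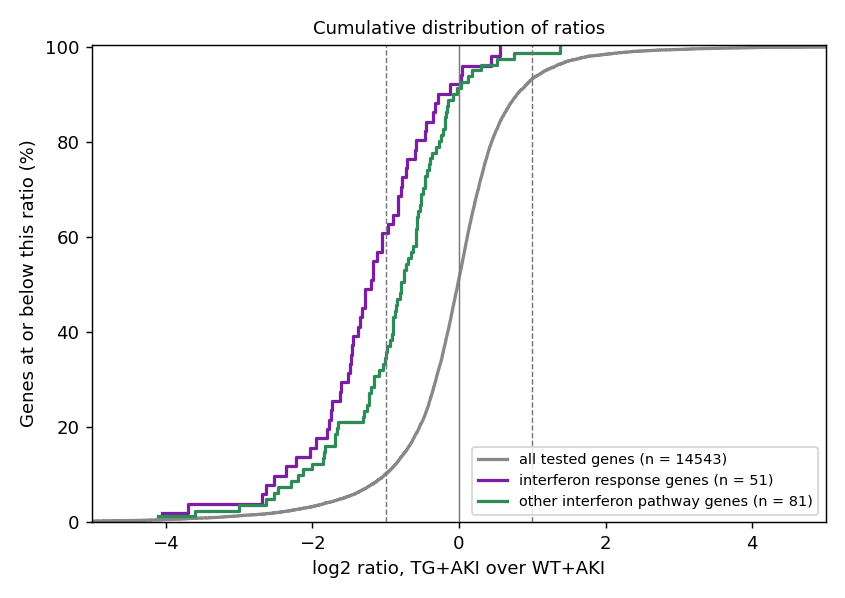
Share of genes at or below each log2 ratio of TG+AKI over WT+AKI, for all 14543 tested genes (grey), the 51 tested interferon response genes (purple) and the 81 other pathway genes (green), with dashed lines at 2-fold. At the left dashed line the curves stand at 10.1%, 60.8% and 34.6%, and the median ratios are -0.01, -1.19 and -0.78.

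Markers of cells that express interferon response genes moved with the result in part. Of 12 leukocyte and macrophage markers, 11 were lower in TG+AKI, and their sum was 227 in WT+AKI and 96.7 in TG+AKI, 2.35-fold lower. Within this list *Ptprc*, the pan-leukocyte marker CD45, was at 13.7 and 7.28, *Itgam* was at 19.9 and 1.06, *Cd68* was at 37.1 and 1.39, and *Csf1r* was higher, at 37.5 and 43.0. Neutrophil markers were low, with 3 of 8 listed and sums of 7.38 and 1.42, all 3 lower in TG+AKI. T and NK cell markers (8 of 10 listed, sums 1.60 and 2.90, 6 higher) and B cell markers (4 of 4, sums 1.46 and 1.87, 3 higher) were near 0 in both libraries. Plasmacytoid dendritic cells are strong producers of type I interferon, and of their 5 listed markers 2 were lower and 3 higher. *Siglech* had 32 and 11 reads, *Ccr9* 11 and 4, and *Pacsin1* 17 and 24, all under the filter. *Tcf4* had values of 34.15 and 35.45. The sums of that 5-gene list (661.9 and 1284.5) came almost wholly from *Klk1* (626.3 and 1247.9), which kidney tubules also express. The 8 endothelial markers had sums of 457.2 and 432.9, with 5 lower and 3 higher. The part of these cell types in the differences of the interferon response genes was not tested.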

How the data were processed

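Whole-kidney mRNA of 2 groups, WT+AKI and TG+AKI, was compared, with 1 library each, grouped by the library names. Per the study's methods, TruSeq Stranded mRNA libraries were read at 100 bases, and STAR 2.7.3a (alignment), HTSeq (gene counts) and DESeq2 (normalization) were run on them. The submitters' processing notes also name Cufflinks 2.2.1, FastQC, edgeR and the build mm10. The annotation and the strand setting of the counting are not given in the sources used here. The deposited table holds 1 normalized signal value per gene and library. Each value was taken here to be a read count divided by a library factor, for the reason given below. The columns summed to 909104.5 (WT+AKI) and 1099983.6 (TG+AKI), near 1000000 and far below the read totals. DESeq2 size factors would shift every log2 ratio by 0.0164, so the deposited scale was not that of DESeq2 size factors. Which of the named programs set this scale was not tested. Within a tolerance of 0.01 reads, 100% of values were whole multiples of the smallest value of their column, so whole reads were recovered. A mean value of 1, the filter for tested genes, stands for 42.4 reads in WT+AKI and 33.1 in TG+AKI. No listed gene was at 0 in either library, and other genes were not analysed here.

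Ratios were taken of the deposited values, with 95% Clopper-Pearson intervals from the recovered reads. A two-sided exact binomial test on the reads with Benjamini-Hochberg adjustment compared the 2 libraries and called 10699 of 14543 tested genes. Since each group held 1 library, neither a count model nor a p-value for the genotype was computed. The procedure was tested on simulated data. Genes were matched by NCBI Gene ID to RefSeq promoters (GRCm38.p6) and by gene symbol to GENCODE M21 transcripts. The longest transcript gave lengths and shared 100-base words. A gene counted as holding a motif if any of its windows held it.

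The members and the other lists (108 pathway genes and 8 marker lists) were chosen with earlier results of these data known. Members past 2-fold and the most changed of each role were to be given in full. Of the other pathway genes, the rule named the ligands, the receptor and JAK-STAT genes and the 10 largest absolute log2 ratios among tested genes; genes named beyond it are marked, and 1 gene that the rule selects is not reported here. Alternatives were pseudocounts of 0.1, 1 and 10, 3 other scalings, no filter, a filter at a mean of 10, intervals wholly beyond 2-fold and the addition of the binomial test. Python 3.11.15, numpy 2.4.6, scipy 1.17.1, pandas 2.3.3 and matplotlib 3.10.9 were used.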

Additional observations from a re-analysis of the deposited data

How the results depend on the processing

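No setting made an interferon response gene 2-fold higher. A pseudocount of 10 left 8 of them lower (15.7%), with a median log2 ratio of -0.60. Among all genes it left 408 lower (2.81%) and 372 higher. Adding reads to low values shrinks their ratios by construction. Equal column totals, which shift every log2 ratio by -0.28, gave 37 members lower (72.55%) and a median of -1.47. Over all genes they gave 2163 lower (14.9%) and 631 higher, so that higher genes were 22.6% rather than 39.8% of those called. A filter at a mean of 10 left 36 tested members, with 19 lower (52.8%). Of all genes it left 9853 tested, with 662 lower (6.72%), 561 higher and a median log2 ratio of 0.021. Without a filter 32 of the 52 members (61.5%) were lower, beside 2331 of 19829 genes (11.8%), and 1685 genes were higher. DESeq2 size factors gave a median over all genes of 0.0021. Log2 ratios of *Irf3* and *Ifi44* turned to -0.23 and -0.24 under equal totals and to -0.10 and -0.11 under a median ratio of 1 over highly expressed genes, which shifts every log2 ratio by -0.14. Intervals lay wholly beyond 2-fold on the lower side for 26 members and for 1048 of all genes (7.21%), and on the higher side for 0 members and 705 genes. No paired analysis was possible because each group held 1 library, and leaving out a replicate could not be done for the same reason. Depth limited *Oas3*, *Mx1*, *Mx2* and *Isg20*, which had 5 to 19 reads in TG+AKI.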

Other observations

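Outside the comparisons above, *Ifit1bl2*, a second relative of *Ifit1* and under the filter on low values, had 19 and 49 reads (WT+AKI and TG+AKI) and a ratio of 3.30 (interval 1.91 to 5.94), so that both listed *Ifit1*-like genes had more reads in TG+AKI while *Ifit1* had fewer (705 and 89). *Samd9l*, an interferon-induced gene, was at 150.6 and 215.4, a ratio of 1.43 (interval 1.38 to 1.48). *Ciita*, the regulator of class II antigen presentation genes, was at 2.52 and 4.26, a ratio of 1.69 (interval 1.30 to 2.19). These genes were chosen after their values were seen.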
